A study of Drosophila melanogaster with 12 samples.

Results

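Apical-basal polarity is set up in Drosophila by a small group of conserved proteins that settle at opposite ends of the cell. The Crumbs complex (Crb, Sdt and Patj) and the Par proteins (Baz, Par-6 and aPKC) mark the apical side, whereas Scrib, Dlg1, L(2)gl and the kinase Par-1 act along the lateral and basal membrane, and the groups keep each other out by phosphorylation and displacement. In the embryo the first epithelium forms during cellularization, when membrane furrows grow inward between the nuclei and the polarity proteins take up their places along the new membrane. Slam marks the furrow tip at this time, and Patj is a partner of Slam there. The transcripts of 10 polarity genes were followed in RNA that was precipitated together with Slam: crb, sdt and Patj (Crumbs complex), baz, par-6 and aPKC (Par complex), scrib, dlg1 and l(2)gl (Scribble module), and par-1. They were chosen by gene symbol, with earlier results of these data known. Each symbol was found in both deposited count tables, which hold 15682 and 17559 genes.

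The 12 libraries were made from RNA in the bound fraction of immunoprecipitates of embryos aged 1.5 to 3 h. The antibody experiment used lysate of wild-type embryos and either an antibody against Slam (3 libraries) or one against Dia (4 libraries), a formin that nucleates actin filaments and also lies at the furrow tip. In the GFP-binder experiment, a single-chain antibody against GFP was used on lysate of GFP-slam transgenic embryos (2 libraries, replicates 1 and 3) and on wild-type lysate, labelled OrR (3 libraries). The GFP-slam transgene is a genomic construct that carries GFP at the N-terminus of Slam, and the labels do not say whether the endogenous gene was intact beside it. The control of the antibody experiment is another antibody and the control of the GFP-binder experiment is another lysate. The question put to these precipitates was whether RNAs other than slam are held in the same complexes. No library of input RNA was analysed here, so a higher ratio with the Slam antibody cannot be told apart from a lower recovery with the Dia antibody.

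Library totals were 25077683 to 31647090 counts with the Slam antibody, 4383704 to 21220787 with the Dia antibody, 39400688 to 47249817 for GFP-slam and 20170936 to 29453698 for wild type. Levels are given as CPM, the counts per 1000000 counts of a library after TMM scaling. The labels were checked on slam itself, which had 119176, 36523 and 32099 CPM with the Slam antibody, against 347 to 1443 CPM with the Dia antibody, and 11737 and 10649 CPM in GFP-slam, against 641 to 724 CPM in wild type. The dia transcript had 144 to 233 CPM with the Slam antibody and 665 to 3364 CPM with the Dia antibody. Slam antibody replicate 1 stood apart in that slam alone took 10.02% of its counts, so each result below is also given without that library where it matters. Markers of the cellularizing blastoderm were found in the antibody libraries for all 8 genes of the list, with a summed level of 687 to 1033 CPM with the Slam antibody and 363 to 906 CPM with the Dia antibody. Within this sum nullo had 159 to 176 CPM with the Slam antibody and 31.8 to 53.9 CPM with the Dia antibody. The ranges of the other genes of this list overlapped between the antibodies. In the GFP-binder libraries, 1 of the 8, Sry-alpha, was at or near 0 (0 CPM in GFP-slam and at most 0.0691 CPM in wild type), and the summed level was 224 to 332 CPM in GFP-slam and 180 to 478 CPM in wild type. The annotation behind each table is not given in the sources used here, so whether this 0 is a level or a difference in annotation was not tested, and the sums were not compared between the experiments. The 6 chorion genes of follicle cells summed to less than 1 CPM in every library, with at most 0.519 CPM with the Slam antibody and at most 0.983 CPM with the Dia antibody. Of 8 genes of differentiated later cells, 3 averaged under 1 CPM with either antibody, and the sum ran from 116 to 521 CPM with the Slam antibody and from 97.1 to 1400 CPM with the Dia antibody. The muscle gene Mhc alone gave 52.4 to 369 CPM with the Slam antibody and 62.7 to 1351 CPM with the Dia antibody, with the highest value in Dia antibody replicate 1. Another muscle gene, Mlp60A, went the other way, with 22.7 to 81.1 CPM with the Slam antibody and 1.11 to 20.9 CPM with the Dia antibody. The highest values of elav, nrv3 and Hml also lay with the Slam antibody, and that of Cg25C with the Dia antibody. In the GFP-binder libraries this list summed to 27.1 to 251 CPM in GFP-slam and 55.1 to 197 CPM in wild type, and the chorion genes to at most 0.154 CPM in GFP-slam and 0.196 CPM in wild type. The 4 maternal transcripts of the list summed to 1170 to 1406 CPM with the Slam antibody and 1337 to 2206 CPM with the Dia antibody, and to 1551 to 1882 CPM in GFP-slam and 1119 to 1696 CPM in wild type. In such bulk precipitates, fewer cells of a type, less RNA per cell and a lower recovery by the precipitation cannot be told apart. The part these markers have in any result was not tested.

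With the Slam antibody, Patj and sdt were higher than with the Dia antibody, dlg1 was lower, and the other 7 polarity transcripts did not pass the test. Enrichment is the log2 ratio of the Slam antibody over the Dia antibody, fitted by edgeR's quasi-likelihood test over the 7466 genes with a mean normalized count of at least 50, with Benjamini-Hochberg adjustment over those genes. All 10 polarity genes were kept by this minimum, with 255 to 20745 counts per library. An adjusted p under 0.05 in the higher direction was reached by 6.84% of all genes tested (511 genes), against 2 of the 10 polarity genes. Of these, Patj is on the list that the study chose by enrichment in these same libraries. Both Patj and sdt are also among the candidate genes that the authors deposited for this comparison. Neither call is therefore independent of the authors' choices. In the lower direction an adjusted p under 0.05 was reached by 3.62% (270 genes), against 1 of the 10. Under normalization by total counts the split over all genes was 452 higher and 409 lower. The median enrichment of the 10 was -0.13, against -0.03 over all genes. DESeq2 passed the same 3 of the 10, and 17% of all genes in either direction.

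**Figure D1:**
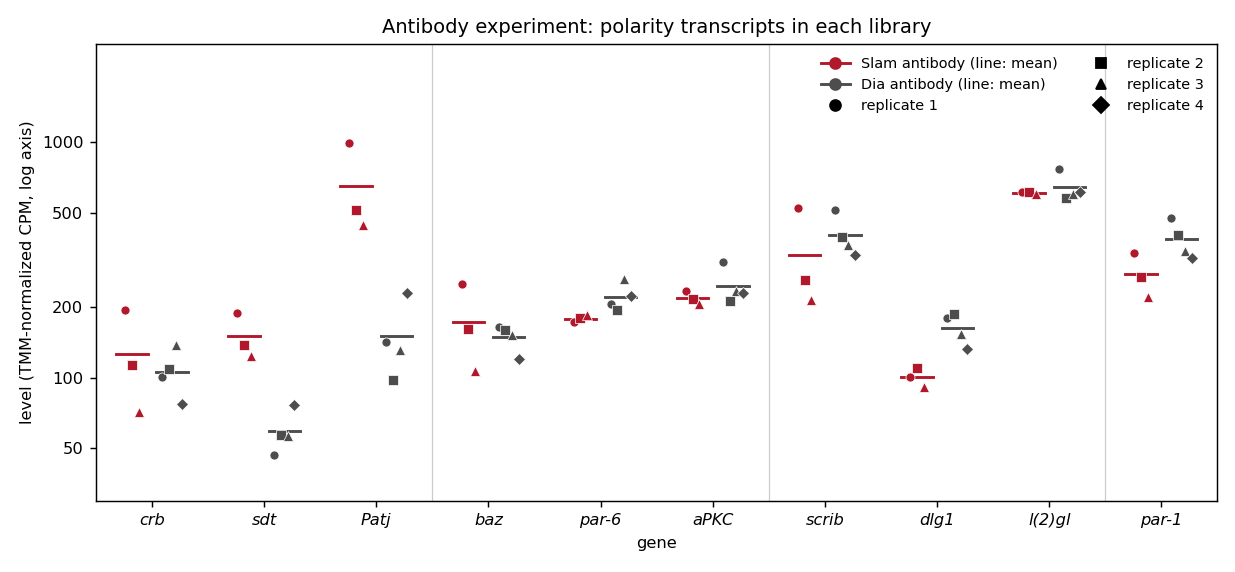
Level of each polarity transcript (TMM-normalized CPM, log axis) in the 3 Slam antibody and 4 Dia antibody libraries; symbols mark the replicate number and lines the group means. For Patj and sdt all Slam antibody libraries lie above all Dia antibody libraries, and for dlg1 and par-6 all lie below.

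In the Crumbs complex, Patj was the most strongly enriched of the 10 transcripts. Patj encodes a scaffold built of PDZ domains that binds Sdt (FBgn0067864, chromosome 3L, 1798803 to 1802184, transcript length 3266 bases; the genome build is not given in the sources used here). It had 984, 512 and 445 CPM with the Slam antibody, against 142, 97.3, 131 and 228 CPM with the Dia antibody. Every Slam antibody library was above every Dia antibody library, and replicate 1 was the highest of them. Slam antibody libraries averaged 647 ± 294 CPM (SD, n = 3), against 150 ± 55.8 CPM in Dia antibody libraries (SD, n = 4). The enrichment was 2.11 on the log2 scale (SE 0.34, edgeR adjusted p = 0.00303), or 4.32-fold, which is rank 375 from the top of 7466 genes. Taken by replicate number, the ratio of Slam to Dia antibody was 6.95 in replicate 1, 5.26 in replicate 2 and 3.39 in replicate 3. In the RefSeq annotation of Release 6, Patj overlaps JTBR, and the strand used in counting is not given in the sources used here. JTBR averaged 19.8 CPM with the Slam antibody and 13.8 CPM with the Dia antibody, with an enrichment of 0.52 (SE 0.35, edgeR adjusted p = 0.351), so that its reads were few beside those of Patj.

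The transcript of sdt followed at a lower ratio. Sdt is the scaffold that joins the cytoplasmic tail of Crb to Patj (FBgn0261873, chromosome X, 8178549 to 8240474, transcript length 6828 bases). It had 188, 138 and 124 CPM with the Slam antibody, against 46.8, 56.9, 56.8 and 76.7 CPM with the Dia antibody. The groups did not overlap. Slam antibody libraries averaged 150 ± 33.7 CPM (SD, n = 3), against 59.3 ± 12.6 CPM in Dia antibody libraries (SD, n = 4). The enrichment was 1.34 (SE 0.22, edgeR adjusted p = 0.00338), or 2.52-fold, at rank 703. The ratios by replicate number were 4.02, 2.42 and 2.18. No other annotated gene overlaps sdt in Release 6.

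The third transcript of the complex, crb, did not pass the test. Crb is the transmembrane protein that gives the complex its name (FBgn0259685). It had 194, 113 and 71.7 CPM with the Slam antibody, against 101, 108, 137 and 77.6 CPM with the Dia antibody. The lowest and the highest of all 7 values were both in Slam antibody libraries. The enrichment was 0.25 (SE 0.31, edgeR adjusted p = 0.624). By replicate number the ratio was 1.92, 1.04 and 0.524, so that the direction itself differed between replicates. Without Slam antibody replicate 1 the fitted value was -0.23.

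None of the 3 transcripts of the Par complex passed the test with the Slam antibody. The scaffold Baz (FBgn0000163), which recruits the other Par proteins to the apical membrane, had 250, 161 and 107 CPM for its transcript with the Slam antibody, against 164, 159, 152 and 120 CPM with the Dia antibody. Here too the Slam antibody libraries included both the highest and the lowest value, and the enrichment was 0.21 (SE 0.27, edgeR adjusted p = 0.636) with all libraries and -0.18 without Slam antibody replicate 1. The transcript of par-6 (FBgn0026192), the adaptor between Cdc42 and aPKC, had 171, 179 and 184 CPM with the Slam antibody, against 205, 194, 261 and 221 CPM with the Dia antibody. All Slam antibody libraries lay below all Dia antibody libraries, but the enrichment of -0.31 (SE 0.19) had an edgeR adjusted p of 0.307. The kinase transcript aPKC (FBgn0261854) had 232, 214 and 204 CPM with the Slam antibody, against 309, 211, 234 and 229 CPM with the Dia antibody. Its groups overlapped, and its enrichment was -0.18 (SE 0.20, edgeR adjusted p = 0.594). Release 6 annotates overlapping genes for baz and aPKC, but those counted here averaged under 1 CPM with either antibody.

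In the Scribble module, dlg1 passed the test in the lower direction. Dlg1 (FBgn0001624) is a lateral scaffold of the same protein family as Sdt. Its transcript had 101, 110 and 91.4 CPM with the Slam antibody, against 178, 187, 152 and 132 CPM with the Dia antibody. The groups did not overlap, and the Slam antibody libraries lay close together. Slam antibody libraries averaged 101 ± 9.34 CPM (SD, n = 3), against 162 ± 24.7 CPM in Dia antibody libraries (SD, n = 4). The enrichment was -0.69 (SE 0.19, edgeR adjusted p = 0.0434), or 0.621-fold. The ratios by replicate number were 0.566, 0.590 and 0.600. The call was close to the threshold: the adjusted p was 0.0847, 0.121 and 0.162 without Slam antibody replicates 1, 2 and 3, and 0.0756 and 0.0511 without Dia antibody replicates 1 and 2. The direction was the same in each of these fits. Over all genes the lower calls numbered 120, 24 and 75 without Slam antibody replicates 1, 2 and 3, against 270 with all libraries. Without Dia antibody replicates 1 and 2 they numbered 151 and 289.

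The other transcripts of the lateral and basal side did not pass. The transcript of scrib (FBgn0263289), a scaffold with leucine-rich repeats and PDZ domains, had 525, 258 and 214 CPM with the Slam antibody, against 516, 393, 367 and 331 CPM with the Dia antibody. Slam antibody replicate 1 was the highest of all 7 libraries and the other two Slam antibody libraries were the lowest, and the enrichment was -0.27 (SE 0.30, edgeR adjusted p = 0.585). It was -0.79 without Slam antibody replicate 1 (adjusted p = 0.0864). The transcript of l(2)gl (FBgn0002121), an aPKC substrate of the basolateral cortex, had 614, 610 and 601 CPM with the Slam antibody, against 767, 579, 601 and 614 CPM with the Dia antibody. These values nearly coincided, apart from Dia antibody replicate 1, and the enrichment was -0.07 (SE 0.19, edgeR adjusted p = 0.831). The transcript of par-1 (FBgn0260934), the kinase that keeps Baz from the lateral membrane, had 338, 266 and 220 CPM with the Slam antibody, against 477, 404, 343 and 321 CPM with the Dia antibody. The groups overlapped only through Slam antibody replicate 1 and Dia antibody replicate 4, and each of the 3 replicate numbers gave a ratio below 1 (0.708, 0.658 and 0.641). The enrichment of par-1 was -0.49 (SE 0.23, edgeR adjusted p = 0.175), and with the replicate number as a block the adjusted p was 0.0542. In Release 6, par-1 overlaps Tbcb and mei-W68, which averaged 56.2 and 6.96 CPM in Slam antibody libraries, against 72.7 and 7.60 CPM in Dia antibody libraries.

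Groups that did not overlap were found for 2 of the 10 transcripts in the higher direction (Patj and sdt), where 15.2% of all genes tested did so, and for 2 in the lower direction (dlg1 and par-6), where 12.2% did. Within the Slam antibody group, 8 of the 10 transcripts had their highest level in replicate 1, which held the highest level for 34.0% of all genes tested. In the same group 9 of the 10 had their lowest level in replicate 3, which held the lowest level for 30.5% of all genes. A fitted enrichment above 4-fold, the threshold used in the study, was reached by 5.5% of all genes (411) and by Patj alone of the 10. The study listed fewer transcripts at this threshold in both experiments. Whether its ratios, its minimum of counts or a use of p-values made the difference was not tested. Patj stands last in the study's list for the Slam antibody, at the threshold itself. A 2-fold enrichment was reached by 12.8% of all genes and by Patj and sdt. For Patj the 4-fold threshold was the close one: its log2 enrichment was 1.65 without Slam antibody replicate 1, 1.83 and 1.95 without Dia antibody replicates 2 and 3, and 1.995 when libraries were scaled by their total counts.

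**Figure D2:**
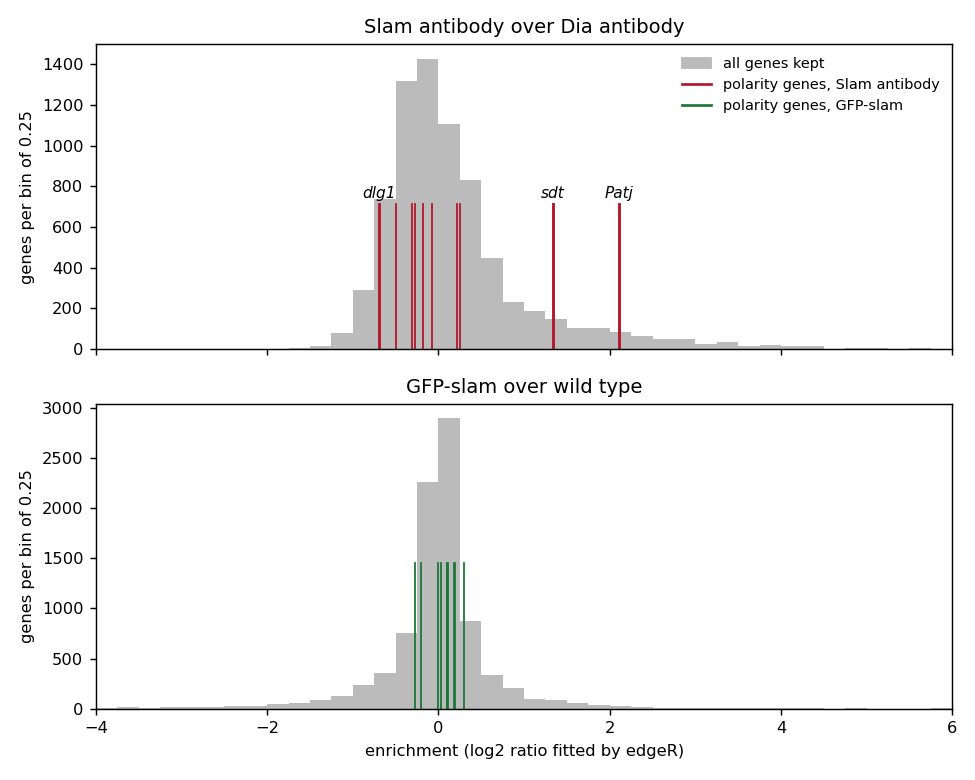
Number of genes per bin of log2 enrichment (grey, all genes kept) in the antibody experiment (upper panel) and the GFP-binder experiment (lower panel), with a vertical line at the value of each polarity gene; names are given for those that passed the test. The axis leaves out 11 of 7466 and 15 of 8767 genes; Patj (2.11) and sdt (1.34) lie in the upper tail of the upper panel, and all 10 lie between -0.28 and 0.29 in the lower panel.

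The calls for Patj and sdt did not rest on a single library. Their adjusted p stayed between 0.00149 and 0.0203 for Patj and between 0.00245 and 0.0194 for sdt when each of the 7 libraries was left out in turn. Their log2 enrichment ran from 1.65 to 2.39 for Patj and from 1.12 to 1.49 for sdt over the same fits.

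**Figure D3:**
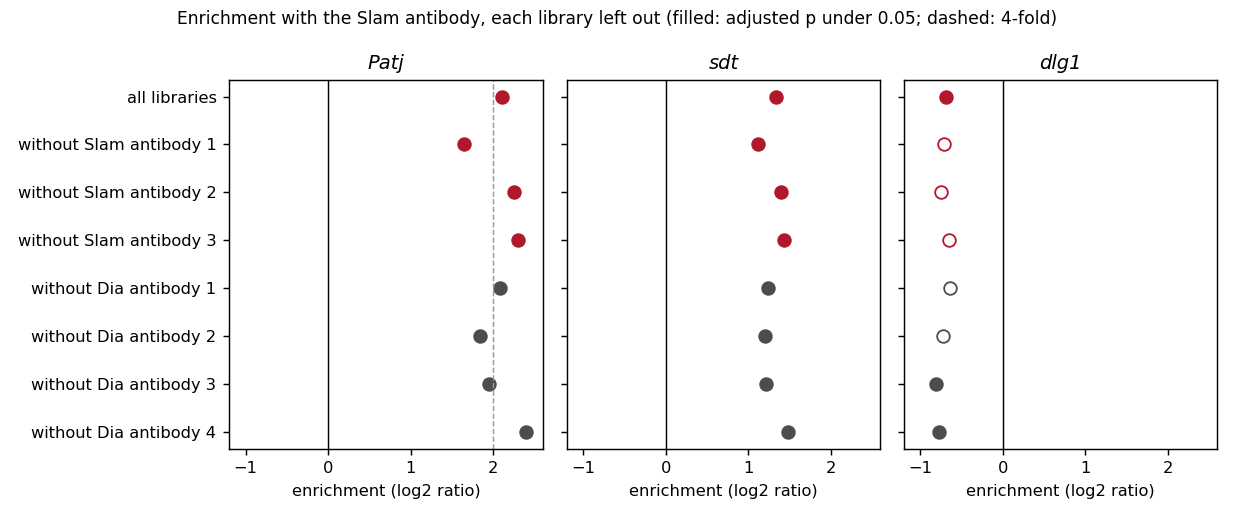
Log2 enrichment with the Slam antibody over the Dia antibody for Patj, sdt and dlg1 with all libraries and with each library left out (rows); filled symbols have an adjusted p under 0.05 and the dashed line marks 4-fold. Patj and sdt are filled in every row, with Patj crossing the 4-fold line, whereas dlg1 is open in 5 rows.

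In the GFP-binder experiment none of the 10 polarity transcripts passed the test between GFP-slam and wild type. The fit covered 8767 genes with a mean normalized count of at least 10, and the 10 transcripts had 931 to 31666 counts per library. None of the 10 had an unadjusted p under 0.05 in edgeR or in DESeq2, and the edgeR adjusted p was 0.9999 for each. Over all genes 0.525% passed in the higher direction (46 genes) and 0.228% in the lower direction (20 genes), so that a count of 0 among 10 is near the background. The enrichments of the 10 ran from -0.28 to 0.29, with SEs of 0.24 to 0.35, and their median was 0.09, against 0.02 over all genes. None of the 10 was above 4-fold, as were 1.16% of all genes.

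**Figure D4:**
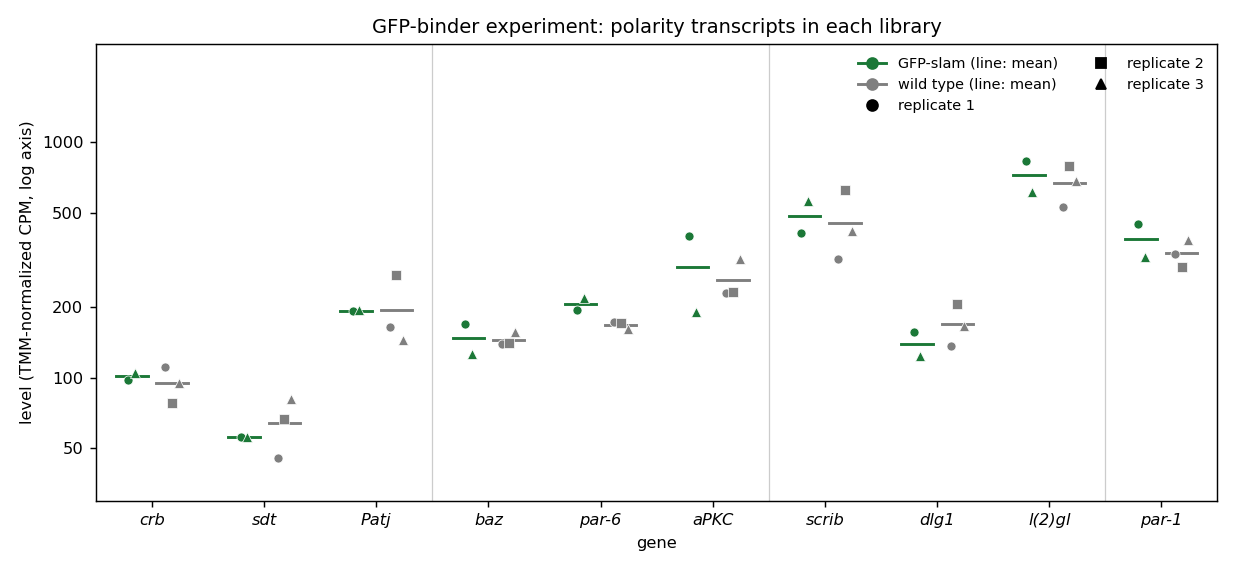
Level of each polarity transcript (TMM-normalized CPM, log axis) in the 2 GFP-slam and 3 wild-type libraries precipitated with the GFP-binder; symbols mark the replicate number and lines the group means. The groups overlap for every transcript but par-6, whose 2 GFP-slam values lie above the 3 wild-type values.

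Patj had 191 and 194 CPM in GFP-slam, against 164, 273 and 144 CPM in wild type. Both GFP-slam values lay inside the range of wild type, and the enrichment was -0.01 (SE 0.32). The transcript of sdt had 55.9 and 56.2 CPM in GFP-slam, against 45.6, 66.8 and 81.0 CPM in wild type, with an enrichment of -0.20 (SE 0.28). It was again inside the wild-type range. The transcript of crb had 97.5 and 105 CPM in GFP-slam, against 111, 78.0 and 95.2 CPM in wild type, and its enrichment was 0.09 (SE 0.25). The Crumbs complex was thus without a call in either direction.

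For the Par complex, baz had 169 and 126 CPM in GFP-slam, against 139, 140 and 156 CPM in wild type, with the wild-type values between those of the GFP-slam libraries and an enrichment of 0.03 (SE 0.25). For par-6 the levels were 193 and 218 CPM in GFP-slam, against 172, 171 and 160 CPM in wild type. It was the only one of the 10 transcripts whose groups did not overlap in this experiment, where 8.98% of all genes tested did so in the higher direction and 8.42% in the lower direction, and its enrichment was 0.29 (SE 0.24). The transcript of aPKC was measured at 398 and 189 CPM in GFP-slam, against 229, 230 and 319 CPM in wild type. The GFP-slam libraries held both the highest and the lowest of its 5 values, and the fitted value was 0.18 (SE 0.35) with all libraries, -0.46 without GFP-slam replicate 1 and 0.58 without GFP-slam replicate 3.

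The Scribble module and par-1 showed the same overlap of groups. The levels of dlg1 were 155 and 123 CPM in GFP-slam, against 136, 204 and 166 CPM in wild type, with an enrichment of -0.28 (SE 0.28). Those of scrib were 410 and 561 CPM in GFP-slam, against 320, 626 and 417 CPM in wild type (0.10, SE 0.34). Those of l(2)gl were 831 and 611 CPM in GFP-slam, against 527, 791 and 683 CPM in wild type (0.11, SE 0.30). In all 3 genes of the module the replicates of wild type differed among themselves by more than the group means did. Finally, par-1 had 447 and 325 CPM in GFP-slam, against 336, 293 and 384 CPM in wild type, and an enrichment of 0.19 (SE 0.29).

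Whether the enrichment itself differed between the experiments was tested by a contrast in a fit of all 12 libraries (7197 genes kept in both), as the enrichment with the Slam antibody minus that with GFP-slam. It was positive and passed for 2.65% of all genes and for 2 of the 10 polarity genes, and negative and passed for 0.653% of all genes and for none of the 10, of which par-6 had an unadjusted p under 0.05. For Patj the difference was 2.14 (SE 0.53, edgeR adjusted p = 0.0409). For sdt it was 1.56 (SE 0.37, edgeR adjusted p = 0.0336), with an adjusted p of 0.0621 when the replicate number was added as a block, whereas Patj then had 0.0166. In the block fit, Dia antibody replicate 4 and wild type replicate 2 have no partner of equal number and carry no weight in the difference. The calls for Patj and sdt without the block depended on single libraries. Of the 12 fits with a library left out, 9 gave an adjusted p above 0.05 for Patj (up to 0.208, without GFP-slam replicate 1) and 9 for sdt (up to 0.175, without the same library), although the difference stayed at 1.70 or more for Patj and 1.36 or more for sdt. The call for Patj held without Slam antibody replicate 3, Dia antibody replicate 4 or wild type replicate 3. That for sdt held without Slam antibody replicate 3, Dia antibody replicate 4 or wild type replicate 1. Over all genes, 191 differences passed in the higher direction with all libraries. Without 1 Slam antibody, Dia antibody or wild-type library, 121 to 215 did so. For dlg1 the difference was -0.39 (SE 0.30, edgeR adjusted p = 0.524), so that its lower level in the antibody experiment was not shown to be particular to that experiment. The remaining 7 differences ran from -0.66 for par-1 to 0.21 for baz. The tables of the experiments hold different numbers of genes, and the CPM were scaled within each experiment. For the contrast, all 12 libraries were scaled together on the genes that both tables hold. Only these ratios, and not the CPM, were set side by side.

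**Figure D5:**
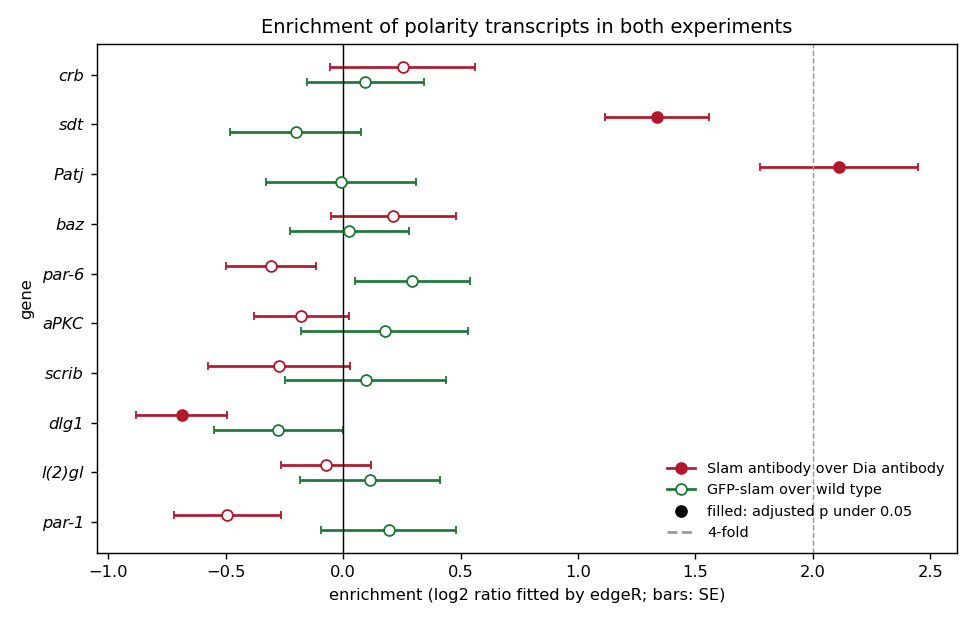
Log2 enrichment fitted by edgeR (points, with SE as bars) of the 10 polarity transcripts with the Slam antibody over the Dia antibody (red) and with GFP-slam over wild type (green); filled points have an adjusted p under 0.05 and the dashed line marks 4-fold. Only Patj (2.11 and -0.01) and sdt (1.34 and -0.20) differ between the experiments by the test of the difference.

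Partners and regulators of these proteins were followed as a list of 27 genes, of which 26 could be tested in the antibody experiment and 27 in the GFP-binder experiment (Nrg was not matched in the antibody table). With the Slam antibody 1 of 26 passed in the higher direction and 2 in the lower direction, against 6.84% and 3.62% of all genes, and the median enrichment of the list was -0.08. None of the 8 partners of Crb and Patj passed, among them veli, the remaining core subunit of the complex (-0.16, SE 0.21). Of the 8 partners of the Par proteins, 2 were lower. One was tws, a regulatory subunit of protein phosphatase 2A, with 154, 164 and 178 CPM in Slam antibody libraries, against 236, 408, 305 and 299 CPM with the Dia antibody (enrichment -0.92, SE 0.22, edgeR adjusted p = 0.0254). The other was 14-3-3epsilon, which binds proteins phosphorylated by Par-1, with 520, 584 and 530 CPM in Slam antibody libraries, against 1301, 1143, 1080 and 678 CPM with the Dia antibody (enrichment -0.95, SE 0.24, edgeR adjusted p = 0.0286). In both, all Slam antibody libraries lay below all Dia antibody libraries. Both calls were lost when any single Slam antibody library was left out, and that for 14-3-3epsilon also without Dia antibody replicate 1. Over all genes the lower calls fell from 270 to 120, 24 and 75 without Slam antibody replicates 1, 2 and 3. They numbered 151 without Dia antibody replicate 1.

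Of the 4 tested genes of the basolateral cortex, nrv2 was higher. It encodes a beta subunit of the sodium-potassium pump that acts at lateral septate junctions, and had 31.3, 48.4 and 51.9 CPM with the Slam antibody, against 7.95, 19.7, 15.4 and 14.2 CPM with the Dia antibody. The groups did not overlap, and the enrichment was 1.62 (SE 0.31, edgeR adjusted p = 0.00888). Just above the threshold was beta-Spec of the same group (enrichment 1.54, SE 0.44, edgeR adjusted p = 0.0549). In the lower direction yrt, a partner of Crb, was as close (enrichment -0.86, SE 0.26, edgeR adjusted p = 0.0531). Both passed under total-count normalization, DESeq2, the replicate block and the joint fit. None of the 5 polarity genes of dividing cells passed, nor did RhoGEF2, the furrow activator of Rho1 (-0.09, SE 0.29). With the replicate number as a block, the count of 3 on this list was 7 (2 higher and 5 lower). Under this block 19% of all genes passed. The count was 1 without Slam antibody replicate 1 and 1 without Slam antibody replicate 2, leaving nrv2 each time. Over all genes, 328 passed higher and 120 lower without replicate 1, and 285 and 24 without replicate 2. With all libraries, 511 genes passed higher and 270 lower. In the GFP-binder experiment none of the 27 passed, and none had an unadjusted p under 0.05 in edgeR. The lowest p there belonged to cora (0.71, SE 0.37), kst (0.48, SE 0.27) and ex (-0.58, SE 0.35), each with an adjusted p of 0.9999. No gene of the list passed the test of the difference between the experiments.

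The transcripts with the pattern most like that of Patj were looked for by the root mean square difference of log2 CPM, centred within each experiment, over the 12 libraries and among 7196 other genes kept in both. The closest were CG4203 (0.248), CG15128 (0.286), sip1 (0.303), CG7110 (0.321) and trio (0.348). Of the polarity genes sdt came first, at rank 51 (0.456), and the other 8 were at rank 2234 (baz, 0.852) or beyond. For CG4203 the enrichment was 2.10 with the Slam antibody and 0.06 with GFP-slam, close to the values of 2.11 and -0.01 for Patj. This is a description, since these libraries also gave the values of Patj.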

How the data were processed

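RNA of the bound fraction was sequenced after TruSeq RNA library preparation on a HiSeq2000. The authors deposited counts of reads per gene for each library, which were used as deposited. The tools in the submitters' processing notes are STAR 2.5.0, bcl2fastq 2.17.1.14, DESeq2 and FastQC 0.11.4, with no role stated. How reads were counted, with or without strand, and on which genome build, is not given in the sources used here. Tables of the authors' own comparisons hold log2 ratios and p-values, which were not used; coordinates and transcript lengths were read from them.

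The test was glmQLFTest after a robust glmQLFit on TMM-scaled counts (edgeR 4.0.16, R 4.3.3), with p-values adjusted by Benjamini-Hochberg over all genes kept and a threshold of 0.05. The minimums of 50 and 10 are a reading of limits stated in the study. The SE of an enrichment was taken from its F statistic, as the absolute log2 value over the root of F. Without 1 of the GFP-slam libraries, the remaining one was assumed to vary like the other groups. The alternatives were RLE or total-count normalization, other minimums of counts, DESeq2 1.42.0, the replicate number as a block, both experiments fitted together and each library left out. The fits were tested on simulated data. Python 3.11.15, numpy 2.4.6, pandas 2.3.3 and matplotlib 3.10.9 were used for tables and figures.

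The 10 genes, the list of 27 partners and the markers were chosen with earlier results of these data known. Patj belongs to the list that the study chose on these samples by enrichment. Both Patj and sdt are among the candidate genes that the authors deposited for the antibody experiment. The named genes were the 10, the partners that passed in either experiment or had the 3 lowest p in each, slam and dia, and the 5 genes most like Patj (log2 of CPM with 1 added). The partners veli, RhoGEF2, beta-Spec and yrt, and the single markers, were named after their values were seen. Symbols were matched through RefSeq Release 6 where names had changed. Of the genes, 394 and 7 had no symbol and are named by identifier.

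The study's methods call the replicates biological, but neither they nor the labels say whether these were separate embryo collections or lysates, and p-values measure the spread between these libraries. Over 13 pairs of libraries of a group, chi-square per degree of freedom was 51.6 to 332, so the spread between libraries exceeds the counting error. Libraries of equal number in the antibody experiment deviated together (correlations of 0.254, 0.391 and 0.151 across genes), each over 0.1, and were treated as pairs in the block fit. Dia antibody replicate 4 and wild type replicate 2 have no partner of equal number, so they carry no weight in the enrichments of the block fits. Libraries of unequal number ran from -0.248 to 0.278, and Slam antibody replicate 3 was closer to Dia antibody replicate 4 (0.278) than to its own number (0.151). The 2 pairs of the GFP-binder experiment had 0.191 and 0.208. With 2 GFP-slam libraries, their deviations from the group mean mirror each other. The same wild-type libraries thus gave -0.191 and -0.208 with the other GFP-slam library, and the values of the 2 pairs are not independent of each other.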

Additional observations from a re-analysis of the deposited data

Results flagged for a closer look

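The polarity transcripts that were enriched with the Slam antibody, Patj and sdt, had another enrichment in the GFP-binder experiment. The enrichment with the Slam antibody minus that with GFP-slam was 2.14 on the log2 scale for Patj (edgeR adjusted p = 0.0409) and 1.56 for sdt (edgeR adjusted p = 0.0336), by a contrast in a fit of all 12 libraries. Both calls depended on single libraries, since 9 of the 12 fits with a library left out gave an adjusted p above 0.05 for Patj (up to 0.208) and 9 for sdt (up to 0.175). With the replicate number as a block, the adjusted p was 0.0621 for sdt and 0.0166 for Patj. The experiments differ in the antibody, the lysate and the control, and these cannot be told apart.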

How the results depend on the processing

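The 3 calls among the 10 polarity genes with the Slam antibody held under both other normalizations, both other minimums of counts, DESeq2, the replicate block and the joint fit. Leaving out libraries gave 2 or 3 calls, with dlg1 as the one lost. With GFP-slam the count was 0 under every alternative run. The differing enrichments numbered 1 with the replicate block (sdt lost), and 0 to 2 with a library left out. The cause was not tested. The members above 4-fold with the Slam antibody numbered 0 under total-count normalization, 2 at a 2-fold threshold, and 0 or 1 with a library left out; none was above 4-fold with GFP-slam. The alternatives for the 4-fold count other than the 2-fold threshold and the ratio of mean CPM were chosen after seeing the data. On the list of partners, the Slam antibody calls were 5 with total-count normalization, DESeq2 or the joint fit, 7 with the replicate block, and 1 to 4 with a library left out; with GFP-slam the count stayed at 0.

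Single enrichments near 0 changed sign, none of them called. With the replicate block, GFP-slam over wild type gave -0.025 for crb, 0.32 for Patj and -0.010 for baz. The block changed no other call of a polarity gene. With a library left out, Slam over Dia antibody ranged from -0.23 to 0.53 for crb, -0.18 to 0.45 for baz and -0.24 to 0.024 for l(2)gl. GFP-slam over wild type then ranged from -0.068 to 0.20 for crb, -0.19 to 0.28 for Patj, -0.20 to 0.19 for baz, -0.46 to 0.58 for aPKC, -0.18 to 0.36 for scrib, -0.13 to 0.29 for l(2)gl and -0.055 to 0.37 for par-1. The difference between the experiments ranged from -0.28 to 0.45 for crb, -0.15 to 0.47 for baz and -0.70 to 0.22 for aPKC. Each polarity gene had at least 255 counts in every library, and GFP-slam had 2 libraries.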
